A study of Rattus norvegicus with 18 samples.

Results

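The genes described here are 9 members of the Bcl2 family, which decides whether a cell keeps or loses the integrity of its mitochondria: *Bax*, *Bak1*, *Bad*, *Bid*, *Bbc3*, *Bcl2l11*, *Bcl2*, *Bcl2l1* and *Mcl1*. They were chosen by gene symbol, and 11 of the 15075 RefSeq identifiers in the count table carry these symbols. Poly(A) RNA was sequenced from whole cervical dorsal root ganglia (DRG), which hold the cell bodies of sensory neurons together with their glia, of 18 adult Lister hooded rats. Naïve rats (n = 6) were unoperated and untreated. The bPYX+GFP rats (n = 6, called GFP rats below) had both corticospinal tracts cut in the medullary pyramids and, a day later, an injection of AAV1 coding for green fluorescent protein into the forelimb flexor muscles of 1 side. The bPYX+NT3 rats (n = 6, called NT3 rats below) had the same lesion and the same kind of injection with AAV1 coding for human prepro-neurotrophin-3, a growth factor for proprioceptive neurons. In both viral vectors the CMV promoter drove the transgene. Ganglia C6 to C8 of the injected side were taken 10 weeks after the lesion and pooled within, but not between, animals. The lesion cuts descending axons of cortical neurons and spares the peripheral axons of the DRG neurons.

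The naïve group differs from both injured groups in surgery, virus and injection together, so these cannot be told apart, while the NT3 and GFP groups differ in the transgene. The comparisons ask whether the mRNAs of the cell death machinery differed after the lesion and after neurotrophin-3 treatment.

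Bax and Bak1 are the proteins that oligomerize in the outer mitochondrial membrane and release cytochrome c, which starts caspase activation. Bcl2, Bcl2l1 (Bcl-xL) and Mcl1 hold them in check, and the BH3-only proteins Bad, Bid, Bbc3 (PUMA) and Bcl2l11 (Bim) either neutralize these survival proteins or activate Bax and Bak1. In developing DRG, neurons compete for limiting neurotrophins, and Bax is required for the death of those that fail to obtain them. Much of the control of the family acts on the proteins, by phosphorylation, cleavage and degradation, which mRNA counts do not measure.

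Each rat had between 10057787 and 16002410 read-pairs counted on genes, and between 13428 and 13873 identifiers had reads. Rats were grouped by the rat number in the heading of the count table, whose columns match the sample descriptions. For 17 of 18 rats the record that holds the rat's own file names another group, although the counts in it were identical to the table in 18 of 18 rats, so results are also given under that other grouping. In those records the rat numbers run in ascending order from the naïve to the GFP to the NT3 group. Rat 57 (GFP) and rat 11 (NT3) stood apart from the others on the first principal component, which held 45.7% of the variance over rats, and results are given with and without them. The ganglion was recognizable from its markers, of which 12 of the 14 listed for sensory neurons had reads, with a summed level of 116200 to 151900 normalized counts. *Pou4f1* and *Ntrk3* had no reads or no row. The 3 muscle markers summed to 10.7 to 67.2 normalized counts, with the highest sum in rat 57.

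No difference in a member of the family passed the test in any comparison. Of the 9 genes, 7 passed the filter of over 10 reads in 6 or more of the 12 rats compared, in each comparison, and were tested. With edgeR's quasi-likelihood test, 0 of 7 members had an adjusted p under 0.05 in any comparison, and 0 of 7 had an unadjusted p under 0.05. Between GFP and naïve rats, the background was 377 of 11601 genes (3.25%) at an unadjusted p under 0.05 and 0 genes (0.0%) at an adjusted p. Between NT3 and naïve rats it was 703 of 11693 genes (6.01%) and 0 genes (0.0%). Between NT3 and GFP rats it was 201 of 11623 genes (1.73%) and 0 genes (0.0%). The likelihood ratio test and DESeq2 also gave 0 of 7 members at an unadjusted p under 0.05 in each comparison. Levels below are normalized read counts, that is, counts scaled to a common library size by TMM. They are compared between rats for the same gene, and not between genes, because transcript lengths were not used here.

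*Bax* (NM_017059), a pore former, ranged from 48.9 to 118 normalized counts in naïve rats, with a median of 77.1. It ranged from 58.35 to 147 with a median of 71.6 in GFP rats, and from 71.0 to 161 with a median of 94.9 in NT3 rats. The groups overlapped, and the highest values of the injured groups came from rat 57 and rat 11. The means were 79.8 ± 26.7, 82.0 ± 33.05 and 105 ± 32.7 (SD, n = 6 each). The log2 fold change was 0.05 (SE 0.27, adjusted p = 1.00 by edgeR) in GFP against naïve rats. It was 0.39 (SE 0.24, adjusted p = 0.607) in NT3 against naïve rats. It was 0.35 (SE 0.26, adjusted p = 0.851) between the injured groups. In 5 of 6 NT3 rats *Bax* lay above the naïve median. The 95% interval of the log2 fold change between the injured groups ran from -0.20 to 0.90, so both no change and a clear increase lay within it.

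*Bak1* (NM_053812), the other pore former, ranged from 67.3 to 102 normalized counts in naïve rats, with a median of 72.8. In GFP rats it ranged from 73.6 to 113 with a median of 81.0, and in NT3 rats from 74.0 to 145 with a median of 99.25. All 6 rats of each injured group lay above the naïve median, although the ranges overlapped. *Bak1* had the smallest unadjusted p of the members in the comparison of NT3 with naïve rats, where it was higher by 0.34 on the log2 scale (SE 0.17, adjusted p = 0.607 by edgeR). The exact permutation test of log2 CPM gave p = 0.0931 for the same difference (two-sided, n = 6 against 6, for which the smallest possible p is 0.00217).

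*Bad* (NM_022698), a BH3-only protein that is held inactive by phosphorylation when growth factors signal through Akt, was the most variable tested member. It ranged from 30.01 to 80.7 normalized counts in naïve rats (median 56.3), from 46.7 to 125.5 in GFP rats (median 51.2) and from 47.1 to 163 in NT3 rats (median 64.5). Rat 57 lay far above the other 5 GFP rats. The highest of the 18 rats had 5.43 times the normalized count of the lowest. The log2 fold change was 0.14 (SE 0.30) for GFP and 0.49 (SE 0.32) for NT3 against naïve rats by edgeR, with adjusted p-values of 1.00 and 0.607.

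*Bid* (NM_022684), which caspase-8 cleaves to link death receptors to mitochondria, ranged from 109 to 179 normalized counts in naïve rats, with a median of 138. In GFP rats it ranged from 102 to 257 (median 133), and in NT3 rats from 121 to 276 (median 181). As for *Bax*, rats 57 and 11 held the top values and the ranges overlapped. The log2 fold change was 0.10 (SE 0.21) for GFP and 0.36 (SE 0.20) for NT3 against naïve rats. The adjusted p-values were 1.00 and 0.607 by edgeR, and the exact permutation p-values 0.851 and 0.175 (two-sided).

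*Bcl2l11* (NM_171988), whose BH3-only protein Bim binds all the survival proteins of the family and is induced in sensory neurons deprived of growth factor, varied little. It ranged from 194.5 to 246 normalized counts in naïve rats, from 176 to 251 in GFP rats and from 179.5 to 273 in NT3 rats, with medians of 205, 196 and 207. The log2 fold changes against naïve rats were -0.06 (SE 0.10) and 0.03 (SE 0.11), with adjusted p-values of 1.00 and 0.886 by edgeR. The interval for NT3 against naïve rats ran from -0.20 to 0.27 on the log2 scale.

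*Bbc3* (NM_173837), a target of p53 that codes for PUMA, was too sparse to be tested, with 1 to 14 reads in a rat and 128 in all. It had 3 to 14 reads in naïve rats, 1 to 11 in GFP rats and 1 to 10 in NT3 rats. All 6 NT3 rats lay below the naïve median in normalized counts, yet the ranges overlapped and the two-sided exact permutation test of log2 CPM gave p = 0.160 (n = 6 against 6). The same exact test gave p = 0.318 for GFP against naïve rats and p = 0.894 between the injured groups. At these counts a moderate difference was not detectable.

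Among the survival genes, *Bcl2* (NM_016993) ranged from 98.35 to 136 normalized counts in naïve rats, from 93.0 to 118 in GFP rats and from 85.8 to 143 in NT3 rats. The medians were 115, 106 and 106. The values of the 3 groups covered much the same range, and 4 of 6 rats in each injured group lay below the naïve median. The log2 fold change was -0.13 (SE 0.12) for GFP and -0.09 (SE 0.14) for NT3 against naïve rats, with adjusted p-values of 1.00 and 0.7495 by edgeR. It was 0.03 (SE 0.13) between the injured groups, with an interval from -0.24 to 0.31.

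*Mcl1* (NM_021846), a short-lived survival protein needed by many neurons, had 1136 to 2055 reads in a rat and therefore the smallest counting error of the members. It ranged from 1298 to 1736 normalized counts in naïve rats, from 1004 to 1791 in GFP rats and from 1114 to 1654 in NT3 rats, with medians of 1563, 1678 and 1479. Rats 57 and 11 had the lowest values of the 18, the opposite of their place for *Bax*, *Bad* and *Bid*. All 6 NT3 rats lay below the GFP median, but the log2 fold change was -0.12 (SE 0.13, adjusted p = 0.851 by edgeR). Against naïve rats it was 0.03 (SE 0.12) for GFP and -0.09 (SE 0.10) for NT3.

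**Figure D1:**
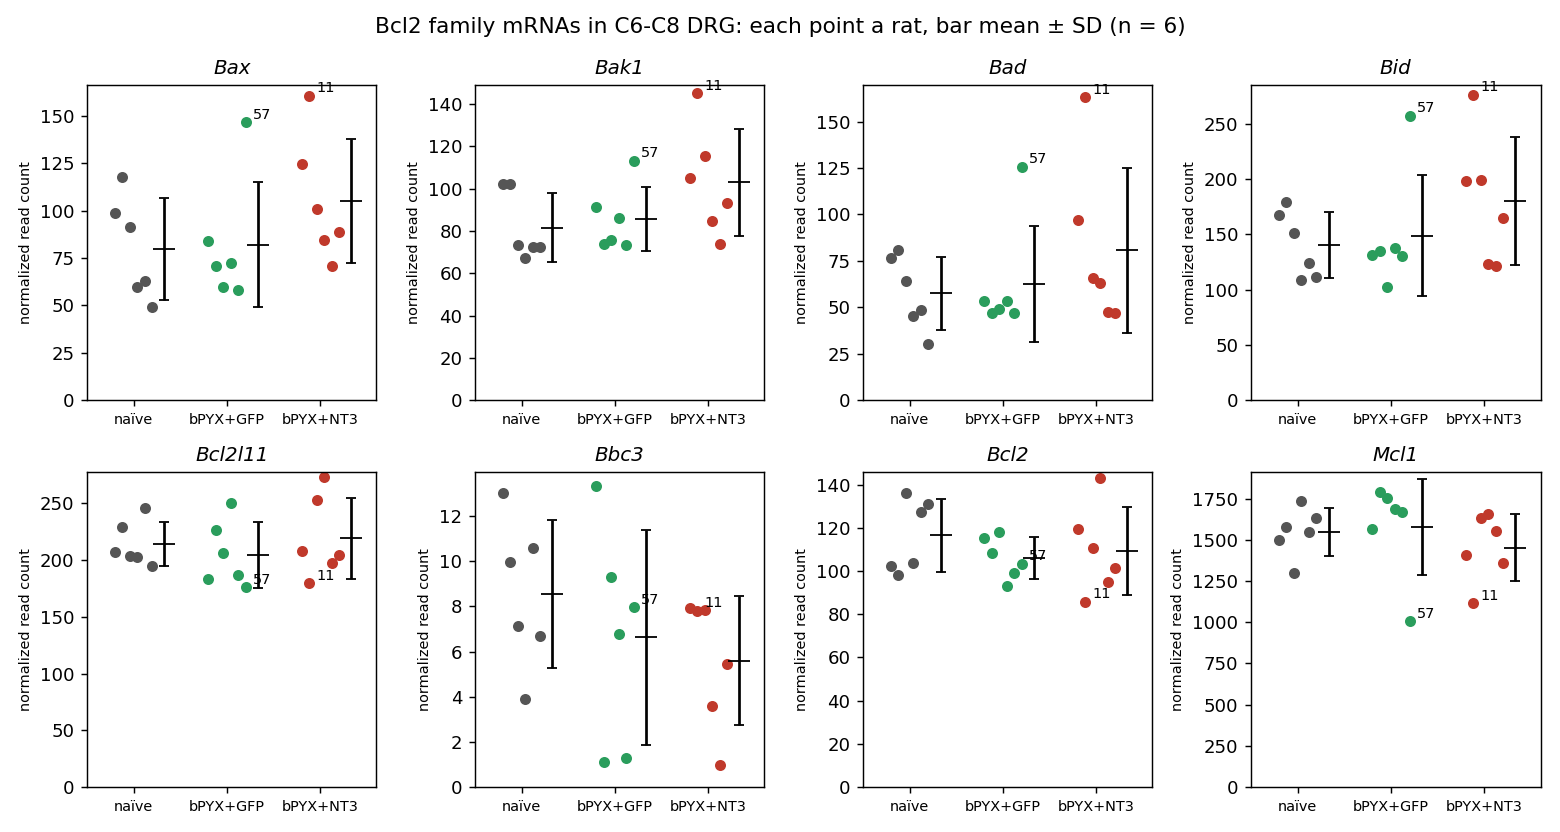
Normalized read counts (y axis, from 0) of 8 members in each rat, by group, with the mean ± SD (n = 6) beside the points and rats 57 and 11 labelled. The groups overlap for every gene shown, and rats 57 and 11 lie at the top for Bax, Bad and Bid and at the bottom for Mcl1.

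*Bcl2l1*, which codes for the survival protein Bcl-xL, was almost without reads. NM_001033670 had 1 read over the 18 rats, NM_001033672 had 13 and NM_031535 had 11. Summed over its identifiers, a rat had 0 to 3 reads in the naïve group, 0 to 2 in the GFP group and 0 to 4 in the NT3 group. The gene was divided among 4 identifiers in the authors' counting, whereas each of the other 8 members had 1. In the same counting, 484 symbols with 2 or more identifiers had a median of 1.22 reads per rat and 69.4% of them had a mean under 10 reads. The 15218 symbols with 1 identifier had a median of 130 reads and 28.6% had a mean under 10. The level of *Bcl2l1* mRNA in these ganglia can therefore not be read from these counts, and the part of the shared identifiers in its near absence was not tested. No fold change is given for it.

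**Figure D2:**
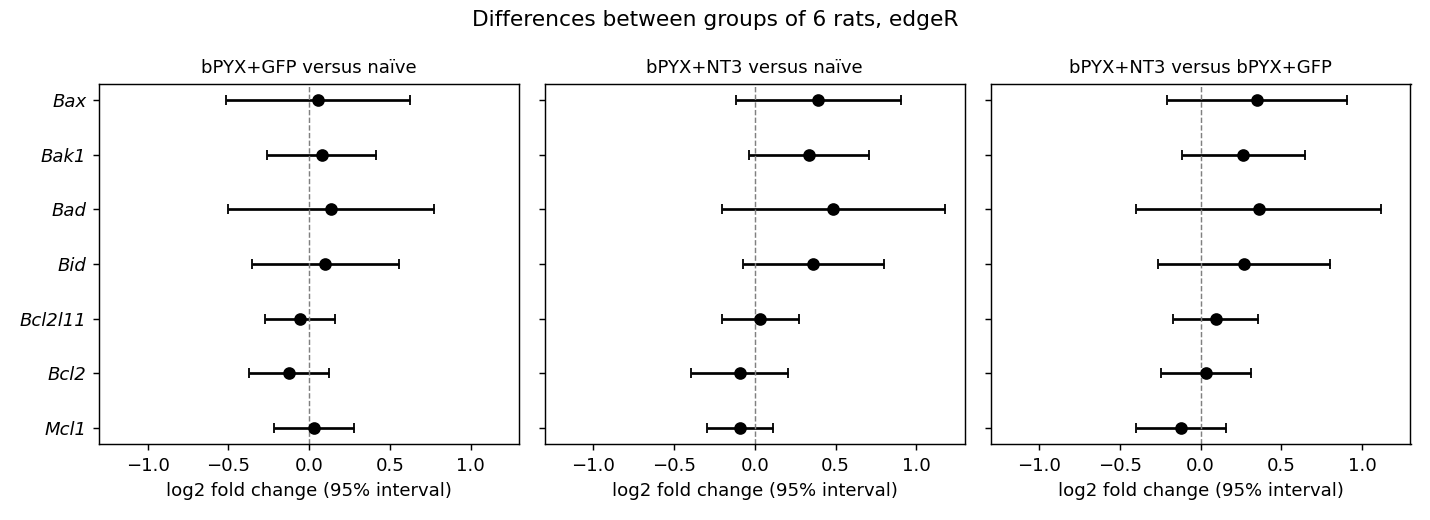
Log2 fold change (x axis) of the 7 tested members in the 3 comparisons, with points for the edgeR estimate and bars for the 95% interval, n = 6 rats a group. Each interval includes 0, and the estimates for Bax, Bak1, Bad and Bid lie to the right of 0 in every panel.

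In NT3 against naïve rats the median log2 fold change of the 7 members was 0.34, beside 0.00 for all genes tested. There 5 of 7 were higher, beside 50.1% of all genes. Between the injured groups it was 0.26, beside 0.00 for all genes, and 6 of 7 were higher, beside 51.2%. In GFP against naïve rats it was 0.05, beside 0.01 for all genes, and 5 of 7 were higher, beside 56.1%. The median absolute log2 fold change of all genes was 0.11, 0.10 and 0.06 in that order. The comparisons share groups and the members move together, as described next, so these medians are not independent of each other. Two-sided exact permutation tests of log2 CPM gave p = 0.242 to 0.972 for the 7 members in GFP against naïve rats. These exact tests gave p = 0.0931 to 0.803 in NT3 against naïve rats and p = 0.1645 to 0.840 between the injured groups (n = 6 against 6 in each).

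The estimates for the pro-death genes depended on single rats. Without rat 57, 5 of 7 members had an unadjusted p under 0.05 between NT3 and GFP rats (*Bax*, *Bak1*, *Bad* and *Bid* higher, *Mcl1* lower), with a background of 2291 genes (19.8%) and adjusted p-values of at least 0.251 by edgeR. Without rats 57 and 11 it was 3 of 7 (*Bax*, *Bid* and *Mcl1*), with a background of 12.7%. There the log2 fold change was 0.44 (SE 0.17) for *Bax*, 0.34 (SE 0.16) for *Bid* and -0.16 (SE 0.06) for *Mcl1*, each with an adjusted p of 0.385. In GFP against naïve rats, leaving out rat 57 turned *Bax* from 0.05 to -0.22, *Bad* from 0.14 to -0.21, *Bid* from 0.10 to -0.14 and *Bak1* from 0.08 to -0.03 on the log2 scale, none with an unadjusted p under 0.05. In NT3 against naïve rats, *Bak1* had an unadjusted p under 0.05 without rat 41, *Bak1* and *Bax* without rat 42, *Bid* without rat 23, and *Bid* and *Bak1* without rat 39. The backgrounds were 10.2%, 8.88%, 11.9% and 8.77% in that order, and no member had an adjusted p under 0.05. In the groups of the records that hold the rats' own files, 0 of 7 members had an unadjusted p under 0.05 in any comparison, beside backgrounds of 1.49%, 2.85% and 2.26%, and the log2 fold changes of *Bax*, *Bak1*, *Bad* and *Bid* were below 0 in each, between -0.40 and -0.0008.

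*Bax*, *Bak1*, *Bad* and *Bid* rose and fell together from rat to rat. Over the 18 rats, Pearson's r between their log2 CPM values lay between 0.853 (*Bak1* with *Bad*) and 0.944 (*Bax* with *Bad*), and after the group means were removed between 0.841 and 0.942. *Mcl1* ran the other way, with r = -0.764 to *Bax* and -0.801 to *Bid*. *Bcl2* and *Bcl2l11* were only weakly related to *Bax*, with r = -0.309 and -0.164. Without rats 57 and 11 the r between *Bax* and *Bid* was 0.884 and that between *Bax* and *Mcl1* was -0.547. These values share library, depth and scaling, and are given as a description. The within-group SD of log2 CPM was 0.46 for *Bax*, 0.58 for *Bad*, 0.40 for *Bid* and 0.28 for *Bak1*, beside a median of 0.21 over 11543 genes. *Bcl2* (0.20), *Bcl2l11* (0.19) and *Mcl1* (0.23) were near that median.

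The same order of rats was seen in a property of the libraries. The no-feature share, the percentage of counted read-pairs that HTSeq assigned to no exon of the annotation (introns of genes and the stretches between genes), ranged from 30.8% to 34.6%. It was lowest in rat 11 (30.8%) and rat 57 (31.7%), the rats with the highest *Bax*, *Bad* and *Bid*. Over the 18 rats *Bax* had Pearson's r = -0.897 and Spearman's rho = -0.882 with this share. Pearson's r was -0.925 for *Bid*, -0.892 for *Bad* and -0.862 for *Bak1*, each with a permutation p of 1e-05 (the smallest that 100000 resamples can give) and 3.58e-05 after adjustment over all genes. The rho values were -0.897 for *Bid*, -0.723 for *Bad* and -0.802 for *Bak1*, with adjusted permutation p-values of 8.93e-05, 0.00285 and 0.000351. *Mcl1* rose with the share (r = 0.806, rho = 0.664, permutation p = 0.00029 and 0.00341, adjusted 0.000687 and 0.00757). *Bcl2* had r = 0.555 (adjusted permutation p = 0.0242) and rho = 0.488 (adjusted p = 0.0661), and *Bcl2l11* r = 0.372 (adjusted p = 0.166) and rho = 0.162.

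By Pearson's r 6 of 7 members passed, and by Spearman's rho 5 of 7. These counts stand beside 67.1% of all 11543 genes by Pearson's r and 60.5% by Spearman's rho, so a relation of this kind was common in these libraries. Without the 2 rats farthest from the median share, which were rats 11 and 57, r was -0.838 for *Bax*, -0.845 for *Bid*, -0.741 for *Bak1* and -0.717 for *Bad* (permutation p of at most 0.0018, n = 16). It was 0.504 for *Mcl1* (permutation p = 0.0466) and 0.402 for *Bcl2* (permutation p = 0.1245). For *Bcl2* the p-value thus passed 0.05 only with those 2 rats, while r in the naïve group, which holds neither, was 0.568 (n = 6). Within the naïve, GFP and NT3 groups r for *Bax* was -0.928, -0.975 and -0.820 (n = 6 each), and for *Mcl1* 0.431, 0.953 and 0.875.

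The share itself did not differ between groups beyond its spread, with two-sided exact permutation p-values of 0.8615, 0.288 and 0.390 in the order of the comparisons above (n = 6 against 6). With the share as a covariate in the edgeR fit, the log2 fold change of NT3 against naïve rats was 0.14 for *Bax*, 0.14 for *Bak1*, 0.09 for *Bad* and 0.11 for *Bid*, in place of 0.39, 0.34, 0.49 and 0.36. The summed level of the sensory neuron markers was also highest in these rats, at 151900 normalized counts in rat 57 and 150700 in rat 11 against 116200 to 141100 in the other 16. The muscle markers were also highest in both, at 67.2 in rat 57 and 33.6 in rat 11 against 10.7 to 30.9 in the other 16. The spinal cord markers (125.5 and 114.7 against 134.8 to 187.9) and dividing cell markers (233.4 and 205.2 against 235.4 to 711.9) were lowest in both. The 5 fibroblast markers summed to 26000 in rat 57, within the 25180 to 38340 of the other 16, and to 20830 in rat 11. All other marker sums of rat 57 lay within the range of the other 16. Rat 11 also lay below that range for the satellite glia markers (9271 against 9878 to 12070). It lay above that range for the red cell markers (1625 against 262.5 to 1527). Against naïve rats, 3 of 5 fibroblast markers were lower at an unadjusted p under 0.05 by edgeR in GFP and in NT3 rats. The list medians were -0.23 and -0.28. Of 8 Schwann cell markers, 2 and 1 were lower, and of 2 mast cell markers tested, 1 and 2. Of 12 sensory neuron markers, 0 and 1 were higher. All genes were at 3.25% and 6.01%, and both comparisons use the same naïve rats. Some other lists also held such genes. The part of these marker levels in the result was not tested. In whole ganglia, fewer cells of a type and less RNA per cell cannot be told apart.

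**Figure D3:**
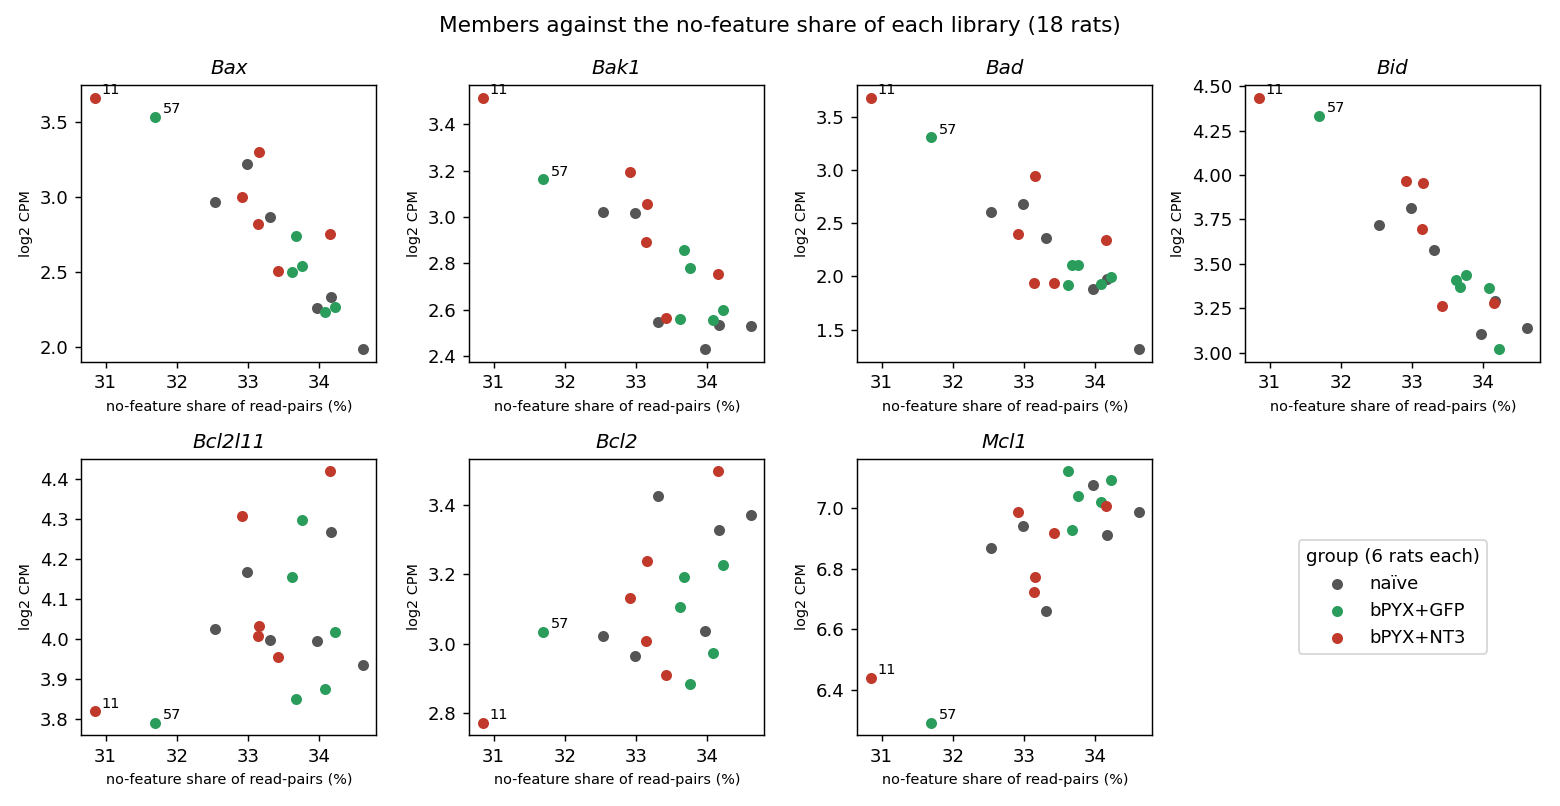
Log2 CPM of the 7 tested members (y axes, each on its own scale) against the no-feature share, in percent of read-pairs (x axis), with each point a rat, coloured by group. Bax, Bak1, Bad and Bid fall and Mcl1 rises with the share, rats 11 and 57 have the lowest shares, and the groups are mixed along each trend.

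The promoters of *Bak1*, *Bad*, *Bid* and *Mcl1* are shown as a description, and any part of them in the changes from rat to rat was not tested. Each runs 5′ to 3′ from 250 bases before to 50 bases after the annotated start, from RefSeq on the GRCr8 build, whereas the reads were counted on Rnor_6.0. Capitals mark the GC box GGGCGG, or CCGCCC for the other strand, the motif bound by Sp1-type factors.
Bak1, chr20:5110925-5111224, minus strand: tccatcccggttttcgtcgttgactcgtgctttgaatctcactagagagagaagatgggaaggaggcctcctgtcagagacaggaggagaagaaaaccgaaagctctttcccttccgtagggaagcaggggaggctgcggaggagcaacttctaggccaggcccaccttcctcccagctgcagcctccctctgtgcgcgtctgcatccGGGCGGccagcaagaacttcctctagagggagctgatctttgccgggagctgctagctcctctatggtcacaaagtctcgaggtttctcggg
Bad, chr1:213562864-213563163, plus strand: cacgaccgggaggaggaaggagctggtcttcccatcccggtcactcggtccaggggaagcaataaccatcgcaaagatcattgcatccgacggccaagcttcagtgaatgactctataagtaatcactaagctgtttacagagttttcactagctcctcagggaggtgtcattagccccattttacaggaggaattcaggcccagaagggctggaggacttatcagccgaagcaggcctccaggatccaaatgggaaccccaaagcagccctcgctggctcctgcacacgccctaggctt
Bid, chr4:155808270-155808569, minus strand: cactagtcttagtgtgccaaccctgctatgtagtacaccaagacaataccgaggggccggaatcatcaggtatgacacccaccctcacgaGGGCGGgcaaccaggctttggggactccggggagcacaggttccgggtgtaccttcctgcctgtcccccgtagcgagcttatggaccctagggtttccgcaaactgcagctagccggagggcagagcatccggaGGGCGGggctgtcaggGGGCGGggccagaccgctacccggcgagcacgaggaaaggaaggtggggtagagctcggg
Mcl1, chr2:185907918-185908217, plus strand: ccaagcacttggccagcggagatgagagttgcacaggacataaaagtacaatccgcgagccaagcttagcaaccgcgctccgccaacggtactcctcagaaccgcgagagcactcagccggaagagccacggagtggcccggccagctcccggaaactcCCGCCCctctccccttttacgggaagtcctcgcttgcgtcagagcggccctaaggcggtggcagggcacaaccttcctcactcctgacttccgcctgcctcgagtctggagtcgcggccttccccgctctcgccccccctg

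The *Bid* promoter holds 3 GC boxes, *Bak1* and *Mcl1* hold 1 each, and *Bad* holds 0 in this window. The motif was present in 33.1% of 33469 promoters of the same length. *Bcl2l11* holds 2. The GC content was 63.3% for *Bid*, 57.7% for *Bak1*, 54.3% for *Bad* and 64.3% for *Mcl1*, with a median of 51.7% over all promoters. The *Bcl2* window was rich in A and T, with a GC content of 32.7%, which is above that of 2.55% of promoters. The promoters of *Bak1*, *Bad* and *Bid* thus differ from each other in both features. A match is a description of the letters and not a binding site. Promoters of *Bax* and *Bbc3* are not shown.

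Ratios of members within a rat do not use the scaling between libraries. They are log2 ratios of read counts with 2 added to each, and they are compared only between rats, since transcript lengths were not used. The ratios are not free of other properties of the libraries. Over the 18 rats *Bax* had Pearson's r = -0.897 and *Bcl2* r = 0.555 with the no-feature share. The relation of the ratios themselves to that share was not tested. The ratio of *Bax* to *Bcl2* was -0.59 ± 0.61 in naïve, -0.43 ± 0.50 in GFP and -0.09 ± 0.55 in NT3 rats (mean ± SD, n = 6). It ran from -1.38 to 0.25 in naïve rats, from -0.95 to 0.50 in GFP rats and from -0.74 to 0.89 in NT3 rats, so the groups overlapped, with rats 57 and 11 at the top of theirs. The ratio of *Bcl2l11* to *Mcl1* was -2.84 ± 0.19, -2.92 ± 0.25 and -2.72 ± 0.13 in the same order. The ratio of *Bcl2* to *Mcl1* was -3.72 ± 0.30, -3.84 ± 0.32 and -3.72 ± 0.19. The ratio of *Bax* to *Bcl2l1* had means of 4.80, 4.64 and 4.80, but it rests on 0 to 4 reads of *Bcl2l1* and became 6.02, 5.83 and 5.63 when 0.5 was added in place of 2.

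**Figure D4:**
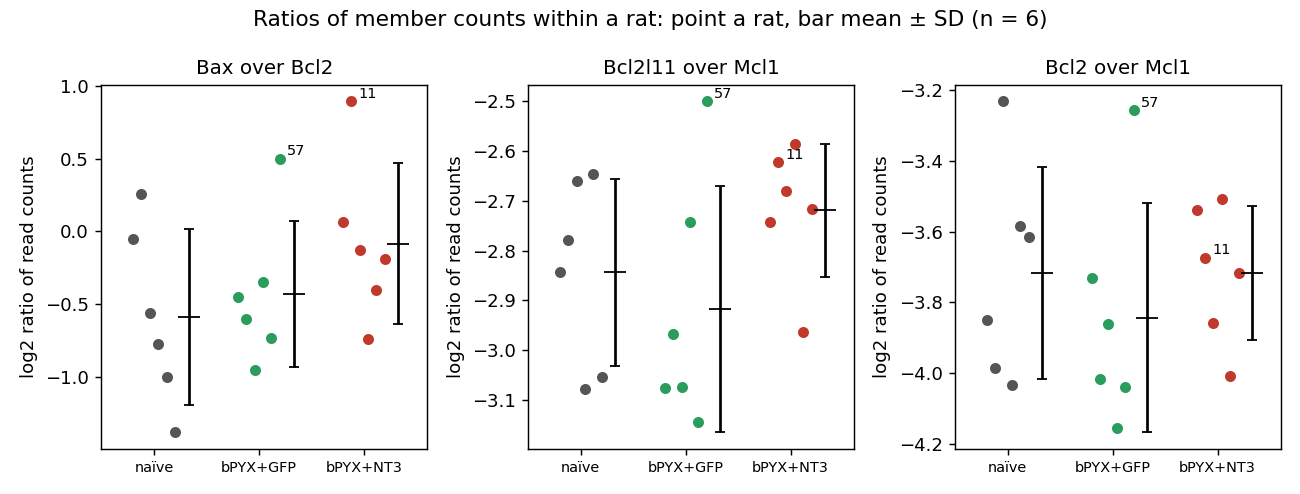
Log2 ratios of read counts (y axes, each on its own scale) of Bax to Bcl2, Bcl2l11 to Mcl1 and Bcl2 to Mcl1 in each rat, by group, with the mean ± SD (n = 6) beside the points. The groups overlap in each panel, and rat 57 has the highest Bcl2l11 to Mcl1 ratio of the 18.

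The genes whose log2 CPM was most like that of a member over the 18 rats are given as a description. For *Bax* they were *Akt1* (r = 0.979), *Pik3r2* (0.975) and *Gnb2* (0.975). For *Mcl1* they were *Gpkow* (0.965), *Swt1* (0.954) and *Chd1* (0.951). For *Bcl2* they were *Cog6* (0.768), *Kdelr3* (0.757) and *C7h12orf56* (0.733). The first principal component, with 45.7% of the variance, had r = -0.968 with *Bax*, 0.833 with *Mcl1* and 0.377 with *Bcl2*. A link between the genes named and the members was not tested.

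Other genes of the pathway were described by 7 lists, in which no gene had an adjusted p under 0.05 in any comparison by edgeR. Among the other genes of the family, 12 of 19 were tested and 0 had an unadjusted p under 0.05 in any comparison. *Pmaip1*, which codes for the BH3-only protein Noxa, was at 17.6 ± 4.71 normalized counts in naïve rats, 21.04 ± 2.83 in GFP rats and 21.5 ± 3.59 in NT3 rats. *Bok*, a pore former, had means of 114, 113 and 145, and *Bag3*, a co-chaperone that binds Bcl2, of 938, 995 and 1031. *Bcl2a1*, a survival gene of immune cells, had a log2 fold change of 0.72 (SE 0.50, exact permutation p = 0.513) between the injured groups, and *Bnip3*, a mitophagy receptor, of -0.13 (SE 0.10). The median log2 fold change of the list was 0.00 in GFP and 0.01 in NT3 against naïve rats, beside 0.05 and 0.34 for the 7 members, and the difference was not tested.

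Downstream of mitochondria, 18 of 20 apoptosome and caspase genes were tested. *Casp9*, the initiator caspase of the apoptosome, had means of 162, 169 and 198. *Aifm1*, which codes for apoptosis-inducing factor, had means of 1044, 1121 and 1052, and all 6 GFP rats lay above the naïve median. *Cycs*, which codes for cytochrome c, had a log2 fold change of -0.15 (SE 0.11) between the injured groups. *Casp12* was at -0.30 (SE 0.20) in NT3 and *Aifm2* at -0.16 (SE 0.11) in GFP against naïve rats.

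Of 11 caspase inhibitor genes, 9 were tested and 0 had an unadjusted p under 0.05. *Cflar*, which codes for the caspase-8 inhibitor c-FLIP, had a log2 fold change of 0.15 (SE 0.09, exact permutation p = 0.0823) and *Faim2*, an inhibitor of Fas signalling in neurons, of 0.20 (SE 0.12, exact permutation p = 0.167) in NT3 against naïve rats. Of the inhibitor of apoptosis genes, *Birc2* was at -0.10 (SE 0.07) in that comparison, and between the injured groups *Birc3* was at 0.37 (SE 0.25), *Birc5* at 0.32 (SE 0.22) and *Birc6* at -0.12 (SE 0.09). All 14 mitochondrial partner genes were tested and 0 had an unadjusted p under 0.05 by edgeR. *Hk1*, a hexokinase that binds the outer membrane, had the lowest edgeR p of the genes named from this list, with means of 2568 in naïve and 2910 in NT3 rats (exact permutation p = 0.0758). *Slc25a4*, the adenine nucleotide translocator, had means of 6602, 6934 and 6985, with exact permutation p-values of 0.04545 in GFP and 0.0801 in NT3 against naïve rats.

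Of the transcriptional and stress regulators, 17 of 25 were tested. *Cdkn1a*, a p53 target that codes for the cell cycle inhibitor p21, was lower in GFP rats (73.35 ± 8.81 normalized counts against 100.3 ± 27.4 in naïve rats, log2 fold change -0.45, adjusted p = 1.00 by edgeR), and all 6 lay below the naïve median. Its unadjusted p was under 0.05 by edgeR, and its exact permutation p was 0.0606 (n = 6 against 6). In NT3 rats it had 103 ± 39.6 normalized counts. *Jun*, which drives *Bcl2l11* transcription in neurons deprived of growth factor, had a log2 fold change of -0.19 (SE 0.12, exact permutation p = 0.208) in GFP rats. *Mapk8*, which codes for the kinase JNK1, was at -0.15 (SE 0.08, exact permutation p = 0.0931), and *Gadd45b*, a stress-induced gene, at 0.29 (SE 0.14, exact permutation p = 0.0541) in NT3 against naïve rats. *Atf3*, a marker of injured sensory neurons, was at 0.76 (SE 0.39, exact permutation p = 0.2165) between the injured groups. It is 1 of 7 listed markers of injured neurons, of which 6 were tested. Between the injured groups 3 were higher and 0 lower at an unadjusted p under 0.05 by edgeR, beside 1.73% of all genes. Their median log2 fold change was 0.86 there, with 0 at an adjusted p under 0.05. Against naïve rats 0 were called in either group, with medians of -0.59 in GFP and 0.12 in NT3 rats.

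Of the kinases and other regulators of the proteins, 23 of 25 were tested. At an unadjusted p under 0.05 by edgeR, 1 was lower in GFP against naïve rats, beside 3.25% of all genes. In NT3 against naïve rats 1 was higher and 1 lower, beside 6.01%. *Pik3r1*, a regulatory subunit of PI3-kinase, was lower in both injured groups, with 2821 ± 168 normalized counts in naïve rats, 2537 ± 167 in GFP rats and 2456 ± 241 in NT3 rats. The log2 fold changes were -0.15 (SE 0.06, exact permutation p = 0.01515, adjusted p = 1.00 by edgeR) and -0.20 (SE 0.07, exact permutation p = 0.0173, adjusted p = 0.607), and all 6 rats of each injured group lay below the naïve median. Both comparisons use the same naïve rats and are not independent. Of 15 death receptor genes, 11 were tested. *Ngfr*, which codes for the neurotrophin receptor p75, had 3932 ± 628 normalized counts in naïve rats, 4135 ± 886 in GFP rats and 4981 ± 1083 in NT3 rats. It was higher in NT3 than in naïve rats at an unadjusted p (log2 fold change 0.34, SE 0.14, adjusted p = 0.607 by edgeR), in 6 of 6 rats above the naïve median, with an exact permutation p of 0.0693. *Tnfsf10*, which codes for the ligand TRAIL, was at -0.37 (SE 0.21, exact permutation p = 0.1385) in GFP rats.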

How the data were processed

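Raw counts of read-pairs per RefSeq identifier were deposited, which the authors made with HTSeq after alignment of 50 bp read-pairs by TopHat2 (Rnor_6.0) and removal of duplicates by Picard. bcl2fastq 1.8.4 is named in the submitters' processing notes. The rows for reads with no gene were not counted in library sizes or tested as genes (no-feature share 33.3 ± 0.939%, ambiguous 2.95 ± 0.166%, several locations 21.1 ± 0.799%, SD over 18 rats). The no-feature share was used in the correlations, in the exact tests of the share between groups and as a covariate in an alternative fit. Symbols came from RefSeq (14187 of 15075 identifiers matched).

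In R 4.3.3, edgeR 4.0.16 (TMM, glmQLFit and glmQLFTest) was fitted to 2 groups of 6 rats at a time, without covariates, to the genes that exceeded 10 reads in 6 or more of those 12 rats. P-values were adjusted by Benjamini-Hochberg over every gene in the fit, and DESeq2 1.42.0 was an alternative. The unadjusted threshold of 0.05 is the one the study used. Single genes were also tested by exact permutation of the rats (two-sided), with log2 CPM at a prior count of 2. Members and lists were chosen with earlier results of these data known. From each list the rule names those genes with p under 0.05 and the 3 of lowest p, per comparison, of which a part is printed. Some genes that the rule names are not reported here.

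Scripts were tested on simulated data and run in Python 3.11.15 (numpy 2.4.6, pandas 2.3.3, matplotlib 3.10.9, scipy 1.17.1). Alternatives covered normalization, low counts, groups, covariates and left-out rats. At about 10 reads counting error is large.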

Additional observations from a re-analysis of the deposited data

Results flagged for a closer look

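In the bPYX+GFP group rat 57 stood apart from the other 5 rats for 4 tested members. It had 147 normalized counts of *Bax*, 125.5 of *Bad* and 257 of *Bid*, above the others, and 1004 of *Mcl1*, below them. In each case the gap to the nearest rat, divided by the range of the group, was above the 95% limit of Dixon's test for 6 samples. The same limit was passed by 3 sparse values of *Bcl2l1*, which rest on 1 to 3 reads. They were 0.907 normalized counts of NM_001033670 in rat 40 (bPYX+NT3), 2.79 of NM_001033672 in rat 41 (naïve) and 1.77 of NM_001033672 in rat 57. In all, 7 of 31 combinations of an identifier and a group passed. Chance passes about 1 in 20 groups of independent continuous values, a rate that cannot be read against this count. The 4 values of rat 57 come from members that moved together over the rats, and an identifier with reads in 1 rat of a group passes by its construction.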

How the results depend on the processing

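No member had an adjusted p under 0.05 in any alternative run, and with another tool, scaling or low-count filter 0 of 7 had an unadjusted p under 0.05. The permutation p-values and the ratios within a rat, apart from that of *Bax* to *Bcl2l1*, moved little with another prior count or pseudocount. Counts of genes moved more. At an adjusted p, the likelihood ratio test called 13 genes and DESeq2 17 in bPYX+GFP against naïve rats. With the no-feature share as covariate 848 genes had an unadjusted p under 0.05 there and 17 an adjusted p, *Bax* was at -0.0279 on the log2 scale, *Bcl2* at 0.013 in bPYX+NT3 against naïve rats and *Mcl1* at 0.012 between the injured groups. Without a filter on low counts 315 genes were called between the injured groups. Genes near 10 reads, and *Bbc3* and *Bcl2l1*, are limited by depth.

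In the groups of the records that hold the rats' own files, 174 and 330 genes had an unadjusted p under 0.05 in bPYX+GFP and bPYX+NT3 against naïve rats, and 1 had an adjusted p in the latter. For bPYX+GFP against naïve rats the log2 fold changes were -0.19 for *Bax*, -0.24 for *Bid*, -0.40 for *Bad*, -0.18 for *Bak1* and 0.11 for *Bcl2l11*. For bPYX+NT3 against naïve rats they were 0.0921 for *Bcl2*, -0.36 for *Bax*, -0.24 for *Bid*, -0.40 for *Bad*, -0.37 for *Bak1* and -0.0572 for *Bcl2l11*. Between the injured groups they were -0.17 for *Bax*, -0.0008 for *Bid*, -0.0041 for *Bad*, -0.19 for *Bak1* and -0.16 for *Bcl2l11*. These groups hold largely other rats than the groups of the table heading. Their rats follow the ascending order of the rat numbers, from rat 2 in the first naïve record to rat 57 in the last bPYX+NT3 record. In the table heading the groups do not follow that order. Which grouping is right was not settled.

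The replicate numbers were not treated as a pairing in the main fits. Within each group they follow the ascending order of the rat numbers, and the sample titles describe no pairing or batch. Deviations from the group means were correlated between same-numbered rats, with r from -0.402 to 0.534. The median r was 0.368 in bPYX+NT3 against naïve rats, -0.054 in bPYX+GFP against naïve rats and 0.057 between the injured groups. With the replicate number as a block, 2962 genes (25.3%) and 4 of 7 members had an unadjusted p under 0.05 in bPYX+NT3 against naïve rats. The members were *Bax*, *Bid*, *Bad* and *Bak1*, with log2 fold changes of 0.40, 0.34, 0.43 and 0.33. With this block 130 genes were called between the injured groups and 316 genes in bPYX+GFP against naïve rats. In the groups of the rats' own files with this block, 91 and 198 genes were called against naïve rats. For bPYX+GFP the values were -0.13 for *Bax*, -0.18 for *Bid*, -0.26 for *Bad*, -0.14 for *Bak1* and 0.11 for *Bcl2l11*. For bPYX+NT3 they were 0.0887 for *Bcl2*, -0.41 for *Bax*, -0.25 for *Bid*, -0.41 for *Bad*, -0.35 for *Bak1* and -0.0545 for *Bcl2l11*. Between the injured groups they were -0.24 for *Bax*, -0.0482 for *Bid*, -0.10 for *Bad*, -0.20 for *Bak1* and -0.16 for *Bcl2l11*. The cause was not tested.

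Leaving out rats 57 and 11 was chosen after the data were seen, as was the block with the groups of the table heading. Without those rats 595, 365 and 1461 genes had an unadjusted p under 0.05 in bPYX+GFP against naïve, bPYX+NT3 against naïve and the injured groups, 1 gene had an adjusted p in the first, and 3 members were called in the last. *Bax* was at -0.22, *Bid* at -0.14, *Bad* at -0.21 and *Bak1* at -0.0319 in bPYX+GFP against naïve rats. Leaving out 1 rat at a time gave 272 to 595, 365 to 1387 and 95 to 2291 genes in the same order, 0 to 1 genes at an adjusted p in the first, and 0, 0 to 2 and 0 to 5 members. In bPYX+NT3 against naïve rats the lowest count of 365 came without rat 11. Between the injured groups the lowest count of 95 came without rat 11 and the highest of 2291 without rat 57. In bPYX+GFP against naïve rats *Bax* ran from -0.22 to 0.20, *Bid* from -0.14 to 0.18, *Bad* from -0.21 to 0.26, *Bak1* from -0.0319 to 0.15 and *Mcl1* from -0.0139 to 0.13. *Bcl2l11* ran from -0.0383 to 0.0844 in bPYX+NT3 against naïve rats and *Bcl2* from -0.0555 to 0.0918 between the injured groups.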
